A study of Mus musculus with 6 samples.

Results

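The serine and one-carbon synthesis enzymes are described here in cultured mouse glioma cells of 2 forms. The genes were chosen by name: Phgdh, Psat1, Psph, Shmt1, Shmt2, Mthfd1, Mthfd2, Mthfd1l, Asns and Tyms. All 10 were listed among the 12151 genes of the deposited table, and all 10 passed the filter on low values. GL261 is a mouse glioma line, here kept in DMEM with fetal bovine serum; the submitters call these differentiated glioma cells. The second form, mNS, was kept as neurospheres in DMEM/F12 with B-27, basic fibroblast growth factor, epidermal growth factor and heparin, without serum in the stated recipe, and is labelled as glioma stem-like cells. Both media held antibiotics, hepes, L-glutamine and beta-mercaptoethanol. Each group had 3 libraries, GL261 at passages 17, 33 and 34 by their titles (the passage field of the last says 33) and mNS at passages 72, 77 and 85. The labels give no genotype, do not say from which cells the neurospheres were started, and name no separate cultures beyond the passage, so each p-value reflects only the variation among 6 libraries, part of which may be technical.

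Cells make serine from a glycolytic intermediate in 3 steps, catalysed in order by the products of Phgdh, Psat1 and Psph. Serine hydroxymethyltransferases, Shmt1 in the cytosol and Shmt2 in mitochondria, then split serine into glycine and a one-carbon unit carried on tetrahydrofolate. Mthfd2 and Mthfd1l process these units inside mitochondria, where the carbon leaves as formate, and the trifunctional enzyme Mthfd1 takes formate up again in the cytosol. The units feed purines, methionine and, through thymidylate synthase (Tyms), the DNA base thymine. Asparagine synthetase (Asns) belongs to another branch of amino acid synthesis. Asns and several genes of serine synthesis are known targets of the transcription factor Atf4, which is translated when amino acids run short.

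DNA before the RefSeq starts of 4 of the genes is shown. Psat1 and Shmt2 had the largest falls, and Asns varied most between passages. Tyms also fell, though less than Mthfd1, whose sequence is not shown. The sequences are from RefSeq (GRCm38.p6), 5′ to 3′ on the strand of the gene. For Asns only the 30 bases around a match to the Atf4-Cebp composite element are given. For the others the 250 bases before the start are given, for Psat1 those of the RefSeq start whose window holds no annotated exon. Capitals mark matches on either strand to TGATGNAA (Atf4-Cebp composite element), TGACGTCA (cyclic AMP response element), CACGTG (E-box) and CCAAT.
Asns, chr6:7693214-7693243, minus strand: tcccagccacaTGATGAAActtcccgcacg
Psat1, chr19:15925060-15925309, minus strand: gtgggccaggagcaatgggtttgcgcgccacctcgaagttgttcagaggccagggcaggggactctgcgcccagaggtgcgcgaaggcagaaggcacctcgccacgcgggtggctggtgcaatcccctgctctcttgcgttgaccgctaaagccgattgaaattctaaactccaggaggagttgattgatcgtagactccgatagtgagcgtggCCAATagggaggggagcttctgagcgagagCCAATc
Shmt2, chr10:127522445-127522694, minus strand: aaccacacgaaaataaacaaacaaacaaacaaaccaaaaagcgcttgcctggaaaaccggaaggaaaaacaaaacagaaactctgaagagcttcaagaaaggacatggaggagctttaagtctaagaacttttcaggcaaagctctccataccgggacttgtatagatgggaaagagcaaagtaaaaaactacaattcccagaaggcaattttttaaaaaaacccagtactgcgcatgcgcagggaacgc
Tyms, chr5:30073626-30073875, minus strand: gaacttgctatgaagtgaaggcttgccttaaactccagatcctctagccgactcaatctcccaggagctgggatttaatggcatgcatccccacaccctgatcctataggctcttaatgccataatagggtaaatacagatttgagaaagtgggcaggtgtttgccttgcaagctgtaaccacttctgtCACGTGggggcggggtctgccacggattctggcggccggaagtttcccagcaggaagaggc
The TGATGNAA match of Asns began 23 bases before the RefSeq start and was the only one in the 250-base windows of the 10 genes, of which 11 were listed because Psat1 has 2 starts; 3.45% of 32851 such mouse windows held one. The gene annotation places Asns at 7675169 to 7693254, so the 30 bases printed for Asns lie inside the annotated gene. In the 250-base window of Asns 45 bases are in annotated exons. The CACGTG of Tyms lay 61 bases before the start, and 6.02% of windows held one. CCAAT or its reverse ATTGG was found in 6 of the 11 windows, against 33.8% of all windows. These were windows of Phgdh, Psat1 (1 of its 2), Psph, Shmt1, Mthfd1 and Mthfd2. TGACGTCA was found in 0 of the 11, against 1.55% of all windows, and Shmt2 and Mthfd1l held none of the motifs searched. These are matches of letters in 1 window per start and were not tested for binding.

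The values are in CPM, reads per library scaled to a common size by the authors with TMM factors. Between 12534422 and 14225175 reads per library fell in listed genes, and each of the 10 genes had between 1176 and 10345 reads in every library. Differences were tested with limma on log2(CPM + 1), adjusting p by Benjamini and Hochberg over 12006 genes, and "called" means an adjusted p under 0.05. Folds and percentages are ratios of group means of CPM. Calls were made for 64.3% of all tested genes, 32.2% higher and 32.1% lower in mNS, and 69.9% had no overlap between groups. The form of the cells, their medium and their range of passages all differ between the groups and cannot be told apart. The labels do not say whether the line of origin differs too. In bulk libraries, fewer cells with a transcript and less transcript per cell also cannot be told apart.

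Of the 10 enzymes, 5 were called lower in mNS (Psat1, Shmt2, Mthfd1, Tyms and Mthfd1l), 1 was called higher (Shmt1) and 4 were not called (Phgdh, Psph, Mthfd2 and Asns). The share called, 6 of 10, stood near the background of 64.3%. The median log2 difference of the 10 was -0.21, beside -0.0027 over all tested genes. None of the 6 changes reached 2-fold, a size that 19.7% of tested genes were called at. The groups did not overlap for the same 6 genes, 5 lower and 1 higher, where 35.2% and 34.7% of tested genes showed that. Added over the 10 genes, the GL261 libraries held 2699, 2470 and 2441 CPM at passages 17, 33 and 34. The mNS libraries held 1833, 1958 and 2006 CPM at passages 72, 77 and 85. Every mNS total lay below every GL261 total. Psat1, the gene with the most CPM in both groups, went from 750 to 398 CPM and so weighs most in these totals.

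**Figure D1:**
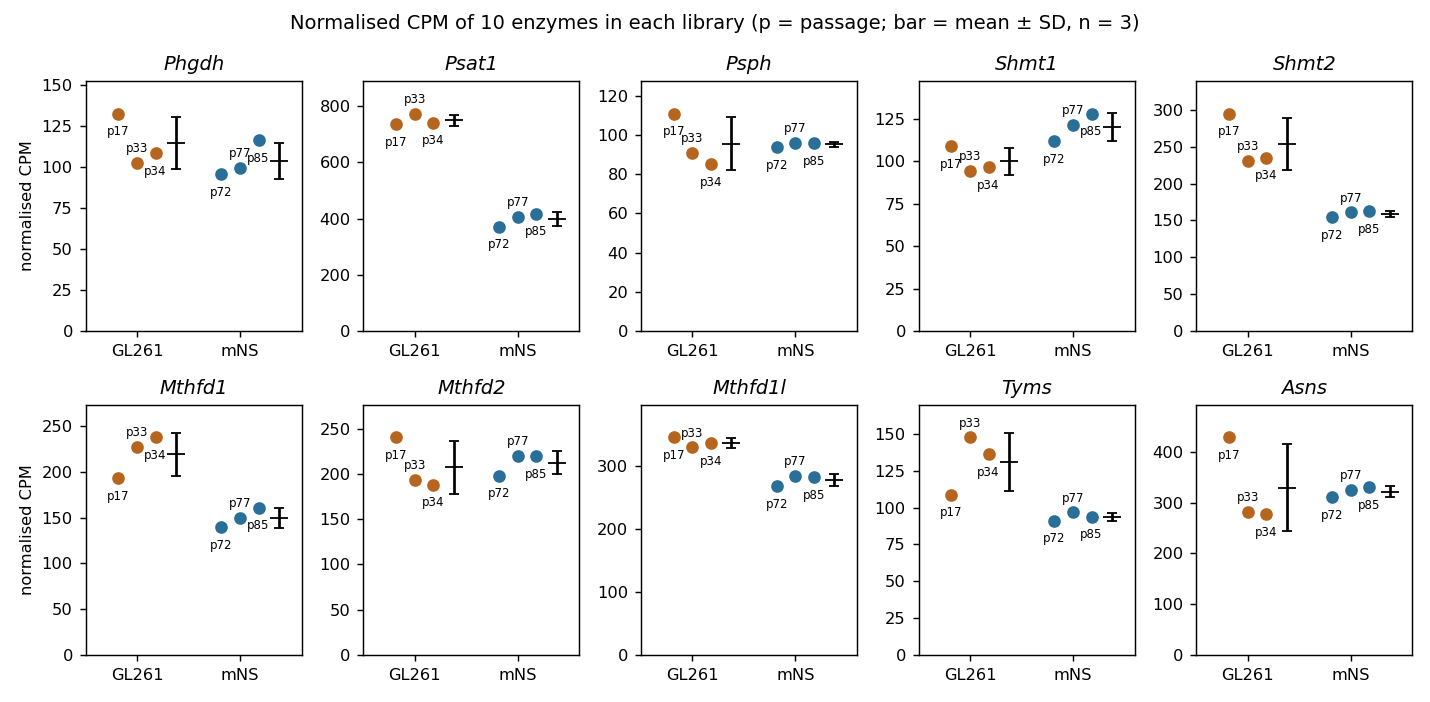
Normalised CPM (vertical axes, from 0) of each of the 10 enzymes in the 3 GL261 and 3 mNS libraries, each point 1 library labelled with its passage; bars are the mean ± SD of a group. The groups are fully separated for Psat1, Shmt1, Shmt2, Mthfd1, Mthfd1l and Tyms, and the GL261 passage 17 library is the highest of the 6 for each gene that was not called (Phgdh, Psph, Mthfd2 and Asns).

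Of the 3 enzymes of serine synthesis, only that of the middle step was called. Psat1, the phosphoserine aminotransferase (chromosome 19, 15904678 to 15947337 in GRCm38, minus strand), had 737, 773 and 741 CPM in GL261 at passages 17, 33 and 34, and 371, 405 and 418 CPM in mNS at passages 72, 77 and 85. The groups were far apart compared with the spread inside each: 750 ± 19.9 against 398 ± 24.1 CPM (SD, n = 3 each), or 46.9% lower in mNS. The log2 difference was -0.91 ± 0.06 (SE; limma adjusted p = 3.39e-06).

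Phgdh, the dehydrogenase of the first step (chromosome 3, 98313170 to 98339990), stood at 132, 102 and 109 CPM in GL261 and at 95.5, 99.2 and 116 CPM in mNS. The groups overlapped, since mNS at passage 85 exceeded both later GL261 passages. The log2 difference was -0.14 with a 95% interval of -0.39 to 0.12 (limma adjusted p = 0.304). Psph, the phosphatase of the last step (chromosome 5, 129765558 to 129787449), had 111, 90.7 and 85.0 CPM in GL261, a range that took in the narrow 93.7, 96.0 and 95.7 CPM of mNS. Its log2 difference was 0.0039, with an interval of -0.22 to 0.23 (limma adjusted p = 0.975). In the annotation 452 exon bases of Psph are shared with Cct6a on the opposite strand. The libraries were made with a stranded kit, but the sources used here do not give whether the counting used strand, so reads of this stretch may belong to either gene. Cct6a had 487 ± 18.3 CPM in GL261 and 425 ± 16.1 CPM in mNS and fell (log2 difference -0.20, limma adjusted p = 0.0150). Its part in the value of Psph was not tested.

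The serine hydroxymethyltransferases moved in opposite directions. Shmt2, the mitochondrial form (chromosome 10, 127517123 to 127522444), had 295, 231 and 235 CPM in GL261 and 155, 161 and 162 CPM in mNS. Every mNS value was below the lowest GL261 value, and the means of 253 ± 35.7 and 159 ± 3.99 CPM differed by 37.1%. The fall was 0.66 on the log2 scale with an SE of 0.09 (limma adjusted p = 0.000327). Shmt1, the cytosolic form (chromosome 11, 60788104 to 60811718), had 109, 94.5 and 96.4 CPM in GL261 and 112, 121 and 128 CPM in mNS. It was 20.5% higher in mNS (99.9 ± 7.76 against 120 ± 8.22 CPM; log2 difference 0.27 ± 0.08, limma adjusted p = 0.0174), and the smallest gap lay between GL261 at passage 17 and mNS at passage 72. The call of Shmt1 was lost when any of 4 libraries was left out: the limma adjusted p was 0.0679 without GL261 passage 33, 0.0591 without passage 34, 0.0620 without mNS passage 77 and 0.0634 without passage 85. Shmt1 shares 184 exon bases with Smcr8 on the opposite strand, and Smcr8 itself was not called (log2 difference 0.10, limma adjusted p = 0.444).

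Among the folate enzymes, both Mthfd1 and Mthfd1l fell and Mthfd2 did not pass the test. Mthfd1, the trifunctional cytosolic enzyme (chromosome 12, 76255298 to 76319803), had 193, 228 and 238 CPM in GL261 and 139, 149 and 161 CPM in mNS. No mNS library reached the lowest GL261 library, and the log2 difference was -0.54 ± 0.09 (SE; limma adjusted p = 0.000834), with 31.7% less in mNS. Mthfd1l, the mitochondrial formate-producing enzyme (chromosome 10, 3973118 to 4167081), was steady within each group: 345, 329 and 336 CPM in GL261 and 267, 284 and 281 CPM in mNS. Its fall of 17.5% was small but exceeded that spread (log2 difference -0.28 ± 0.05, limma adjusted p = 0.00200). Under quantile normalisation it was -0.14 and was not called (limma adjusted p = 0.0538).

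Mthfd2, the mitochondrial dehydrogenase and cyclohydrolase (chromosome 6, 83305691 to 83325908), had 240, 193 and 188 CPM in GL261 and 198, 220 and 220 CPM in mNS. The mNS values lay between the GL261 passages, with a log2 difference of 0.04 and an interval of -0.18 to 0.27 (limma adjusted p = 0.718). With array weights, which give each library a weight from its own spread, Mthfd2 was called higher in mNS (log2 difference 0.16, limma adjusted p = 0.0113).

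Tyms, which makes thymidylate from deoxyuridylate with a folate one-carbon unit (chromosome 5, 30058202 to 30073617), had 109, 148 and 136 CPM in GL261 and 91.2, 96.7 and 93.7 CPM in mNS. It was lower by 28.3% (log2 difference -0.46 ± 0.11, limma adjusted p = 0.00469), and the smallest gap was to the GL261 passage 17 library. The processed pseudogene Tyms-ps on chromosome 10 was listed too, with 187, 262 and 245 reads in GL261 and 154, 137 and 156 in mNS, and also fell (log2 difference -0.57, limma adjusted p = 0.00543). The sources used here do not give how reads matching both copies were assigned, so the level of Tyms is uncertain to that extent.

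Asns, which turns aspartate into asparagine (chromosome 6, 7675169 to 7693254), had 428, 282 and 277 CPM in GL261 and 310, 325 and 330 CPM in mNS. The GL261 passage 17 library stood above all mNS libraries and the later passages below all of them. The group means of 329 ± 86.0 and 322 ± 10.3 CPM were close, with a log2 difference of -0.0025 and an interval of -0.35 to 0.34 (limma adjusted p = 0.990). Without the passage 17 library the sign turned and the gene was called, at 0.20 (limma adjusted p = 0.0117).

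**Figure D2:**
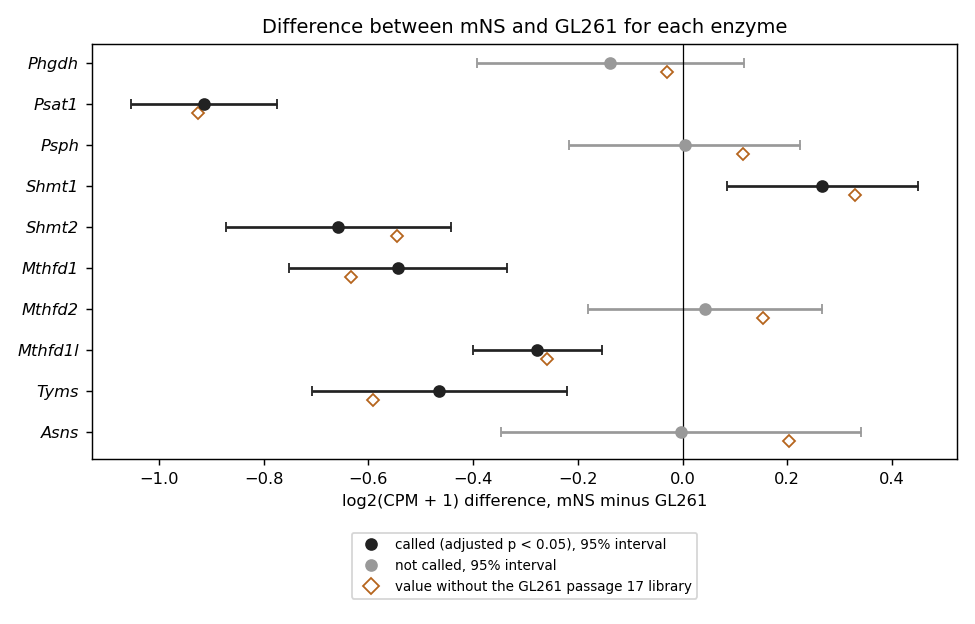
Difference in log2(CPM + 1) between mNS and GL261 (horizontal axis) for each enzyme, with filled points for all 6 libraries, their 95% intervals from limma, and open diamonds for the value without the GL261 passage 17 library. Psat1 at -0.91 lies furthest from 0, Shmt1 is the only called gene on the right, and the diamond of Asns moves from -0.0025 to 0.20.

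Ratios between enzymes within a library do not depend on how libraries are scaled. They were compared by an exact two-sided permutation test, whose smallest possible p with 3 against 3 libraries is 0.10. Of 9 ratios, 5 did not overlap between the groups, and each of these had an exact p of 0.10, or 0.18 adjusted over the 9. No share over other gene pairs was computed to set beside this count. Each of the 5 holds an enzyme called on its own, so they are not separate from those calls. Shmt2 to Shmt1 was 2.71, 2.44 and 2.44 in GL261 and 1.39, 1.33 and 1.27 in mNS, a log2 difference of -0.93 (exact p = 0.10). It sets a gene that fell against one that rose, as does Tyms to Shmt1. Psat1 to Phgdh was 5.57, 7.56 and 6.83 in GL261 against 3.89, 4.09 and 3.60 in mNS (log2 difference -0.78, exact p = 0.10). Tyms to Shmt1 went from 1.33 ± 0.291 to 0.782 ± 0.0441 (log2 difference -0.74, exact p = 0.10). In the other direction, Mthfd2 to Mthfd1 was 1.25, 0.849 and 0.792 in GL261 and 1.42, 1.47 and 1.37 in mNS (log2 difference 0.59, exact p = 0.10). Mthfd2 to Mthfd1l also separated the groups, at 0.615 ± 0.0727 and 0.766 ± 0.0205 (exact p = 0.10).

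The other 4 ratios overlapped: Psph to Phgdh (exact p = 0.30), Asns to Phgdh (0.20), Mthfd1l to Mthfd1 (0.20) and the summed mitochondrial to the summed cytosolic enzymes (0.90). The last, Shmt2, Mthfd2 and Mthfd1l over Shmt1 and Mthfd1, was 2.92, 2.34 and 2.27 in GL261 and 2.47, 2.46 and 2.30 in mNS. The compartments as sums thus differed by -0.05 on the log2 scale, less than the SD of 0.20 in GL261, and the sign turned to 0.062 without the passage 17 library.

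**Figure D3:**
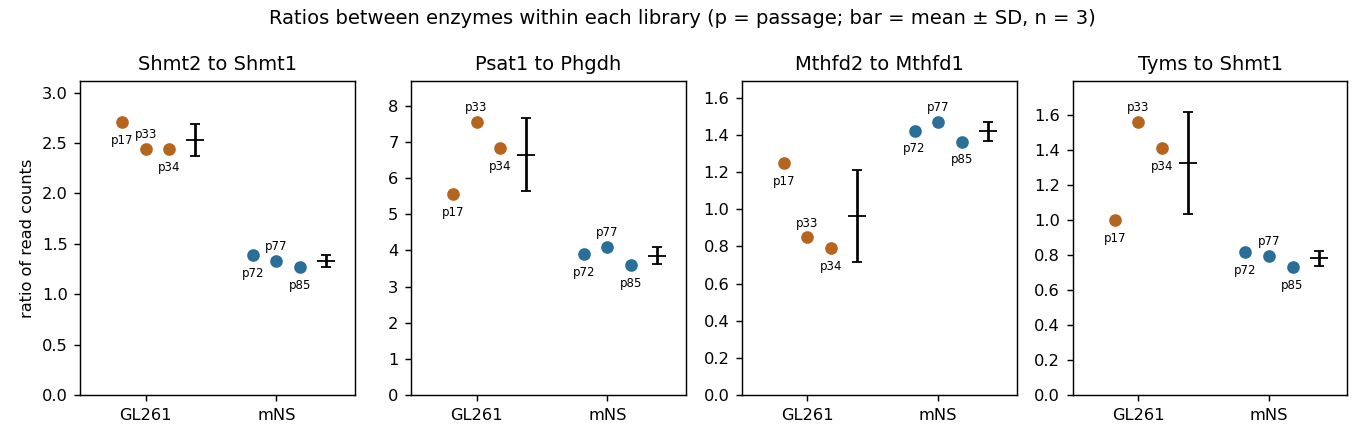
Ratios of reads between pairs of enzymes within each library (vertical axes, from 0), each point 1 library labelled with its passage, bars the mean ± SD of 3 libraries. The groups do not overlap in any of the 4 ratios shown: Shmt2 to Shmt1, Psat1 to Phgdh and Tyms to Shmt1 are lower in mNS and Mthfd2 to Mthfd1 is higher.

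Levels can be compared between genes only per length, taken here as the exon bases of all annotated transcripts of a gene. That length ran from 2486 bases for Phgdh to 6089 for Tyms and can exceed the transcript in use. The order of the genes therefore depends on the annotation as well. In GL261 the level was highest for Psat1 (176 ± 4.68 CPM per kb), followed by Asns (120 ± 31.4), Shmt2 (81.5 ± 11.5), Mthfd1l (75.8 ± 1.80), Mthfd2 (59.4 ± 8.28), Mthfd1 (49.4 ± 5.30), Phgdh (46.0 ± 6.39), Shmt1 (25.7 ± 2.0), Psph (22.1 ± 3.13) and Tyms (21.5 ± 3.27). Neighbours whose mean ± SD ranges met were Asns and Shmt2, Shmt2 and Mthfd1l, Mthfd2 and Mthfd1, Mthfd1 and Phgdh, Shmt1 and Psph, and Psph and Tyms. In mNS the order began with Asns (118 ± 3.78 CPM per kb), and Psat1 came next at 93.6 ± 5.65. Mthfd1l (62.6 ± 2.07) and Mthfd2 (60.9 ± 3.56) followed, then Shmt2 (51.3 ± 1.28), Phgdh (41.7 ± 4.44), Mthfd1 (33.7 ± 2.45), Shmt1 (31.0 ± 2.12), Psph (22.0 ± 0.294) and Tyms (15.4 ± 0.448). There the ranges met for Mthfd1l and Mthfd2 and for Mthfd1 and Shmt1. Psat1 and Asns exchanged places between the groups, and Shmt2 moved from above Mthfd2 in GL261 to below it in mNS. Shmt2 was also below Mthfd1l in mNS, but in GL261 the ranges of Shmt2 and Mthfd1l met.

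Within GL261, the passage 17 library differed from passages 33 and 34 for most of these genes. It was the highest of the 3 for 7 of the 10 enzymes and the lowest for the other 3 (Psat1, Mthfd1 and Tyms); over all tested genes it was the highest for 38.6% and the lowest for 40.4%. Against the mean of the later passages, Asns stood 0.61 higher on the log2(CPM + 1) scale. Phgdh (0.33), Psph (0.33), Mthfd2 (0.33) and Shmt2 (0.34) stood higher by nearly the same amount, and Tyms (-0.38) and Mthfd1 (-0.27) lower. Psat1 (-0.04) and Mthfd1l (0.05) hardly differed. The median over all tested genes was -0.0038. With a single early library these are descriptions and carry no test. In mNS the passage 72 library was the lowest for all 10 enzymes (40.3% of tested genes), and for 7 the values stood in the order of passages 72, 77 and 85 (27.3% of tested genes).

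Of 25 tested Atf4 targets that are not among the 10 enzymes, 24 were highest at passage 17 and 1, Cebpb, lay between the later passages. The median difference of the 25 was 0.56. Over all tested genes 38.6% were highest at passage 17. Slc7a11, the cystine transporter, had 33.3 CPM at passage 17 and 8.0 and 7.73 CPM at passages 33 and 34. Cth, which makes cysteine from cystathionine, stood 1.37 higher and the stress regulator gene Nupr1 1.13 higher. The Atf4 transcript itself differed less, at 747 CPM against 653 and 652 CPM. Of 16 proliferation markers 10 were lowest at passage 17 (median -0.07), beside 40.4% of all tested genes. Among the enzymes Psat1, Mthfd1 and Tyms were lowest there. The part of these genes or of passage in the values of the enzymes was not tested.

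**Figure D4:**
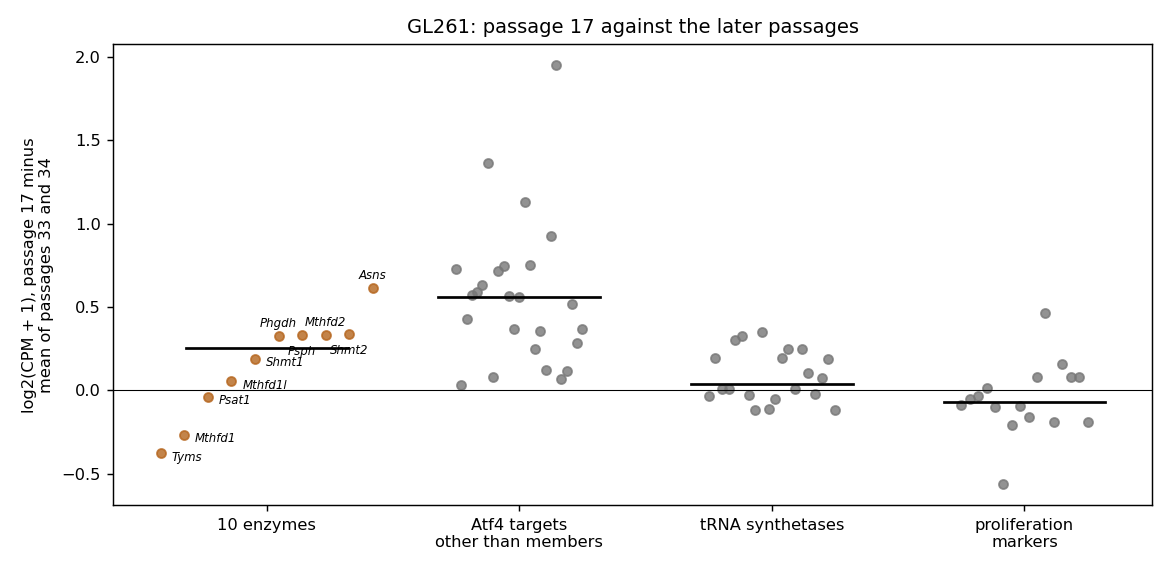
Difference in log2(CPM + 1) between the GL261 passage 17 library and the mean of passages 33 and 34 (vertical axis), each point 1 gene, for the 10 enzymes (named), 25 other Atf4 targets, 20 cytosolic aminoacyl-tRNA synthetases and 16 proliferation markers; horizontal bars are medians. Asns is the highest of the enzymes at 0.61, and the targets have the highest median, 0.56, while the medians of the synthetases (0.04) and the proliferation markers (-0.07) are near 0.

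Across groups, Atf4 targets had no common direction. Of the 25, 7 were called higher in mNS, 6 lower and 12 were not called (median log2 difference 0.16), beside backgrounds of 32.2% and 32.1%; without the GL261 passage 17 library 12 were called higher and 5 lower. Slc7a11 rose from 16.4 ± 14.7 to 138 ± 7.87 CPM, 8.44-fold, or 17.5-fold without that library (limma adjusted p = 0.000254). The pseudokinase gene Trib3, which feeds back on Atf4, rose 3.21-fold (limma adjusted p = 0.000123). In contrast Pck2, the mitochondrial enzyme that makes phosphoenolpyruvate, fell from 190 ± 10.3 to 61.2 ± 11.7 CPM (limma adjusted p = 9.00e-06), and Atf5, a related factor, fell from 35.6 ± 9.01 to 12.7 ± 4.42 CPM. Of 15 regulators of this response, several of them also among the targets, 6 rose and 5 fell, or 3 fell without GL261 passage 17, without mNS passage 77 or with columns rescaled to a common sum. Atf4 was lower by 13.2% (684 ± 54.8 against 594 ± 25.9 CPM, limma adjusted p = 0.0329). The kinase gene Eif2ak3, whose product senses stress of the endoplasmic reticulum, rose 1.99-fold, the stress factor gene Atf3 2.79-fold, and Myc, a growth regulator that can also drive serine synthesis genes, 1.69-fold (limma adjusted p = 0.000194).

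In the main test most cytosolic aminoacyl-tRNA synthetases, which load amino acids onto tRNAs, were called lower in mNS. Of 20 tested, 14 fell and 1 rose (median log2 difference -0.30, beside -0.0027 over all tested genes and 32.1% called lower). The number that fell ranged from 10 to 14 over the alternatives run for the lists, and from 12 to 14 with 1 library left out. Nars, the asparagine enzyme, fell from 728 ± 31.6 to 403 ± 14.6 CPM, Tars for threonine fell 1.65-fold and Hars for histidine 1.56-fold. Rars for arginine was the riser, from 342 ± 26.7 to 492 ± 52.2 CPM, and 3 rose without GL261 passage 17 and 2 with columns rescaled to a common sum. Sars, which loads serine, was not called (log2 difference 0.11).

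The other genes of the folate cycle mostly did not pass the test. Of 12 tested, 2 rose, 3 fell and 7 were not called, beside 32.2% of all tested genes called higher and 32.1% lower. The median log2 difference was -0.06, the same when Aldh1l1 is set to its bound. Aldh1l1, a cytosolic enzyme that burns off one-carbon units, had 8.19 ± 3.90 CPM in GL261 and no read in mNS, which is at least 36.6-fold lower when mNS is set to 3 reads per library. Its mitochondrial relative Aldh1l2 fell 1.66-fold, with 365 CPM at GL261 passage 17 against 219 and 215 CPM later. Ggh, which shortens folate chains, rose 1.41-fold, and the other riser was the folate carrier gene Slc19a1 (log2 difference 0.28). The number that rose was 1 without GL261 passage 33 or 34 or without mNS passage 77 or 85.

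Over all tested genes 32.2% were called higher and 32.1% lower, the background for the lists that follow. Of 12 tested genes that use, carry or break down serine and glycine 5 rose and 2 fell (median log2 difference 0.24), and 3 rose without mNS passage 85. The number that fell was 1 without any 1 of the mNS libraries, with a pseudocount of 0.1 or with columns rescaled to a common sum. Gldc, the glycine decarboxylase, rose from 3.22 ± 1.45 to 16.4 ± 1.23 CPM, and Amt, another part of the glycine cleavage system, fell with 51.4 CPM at GL261 passage 17 and 16.6 to 23.0 CPM in the other libraries (limma adjusted p = 0.0488). Gcat, which splits a threonine breakdown product to glycine, rose 1.96-fold and Pipox, an oxidase of sarcosine and pipecolate, rose from 0.418 ± 0.113 to 1.92 ± 0.525 CPM. Sfxn3, a mitochondrial serine carrier, fell 2.86-fold. Of its relatives in the list, Sfxn1 rose 1.28-fold (limma adjusted p = 0.0147) and Sfxn2 was not called. Of 11 methionine cycle and transsulfuration genes 5 rose and 2 fell (median 0.35). Cbs, which joins serine to homocysteine, rose from 2.66 ± 0.560 to 49.2 ± 4.56 CPM (18.5-fold, limma adjusted p = 1.18e-07). Ahcyl2 and Ahcyl1, relatives of the homocysteine-releasing enzyme, rose 2.04-fold and 1.34-fold, and Mat2b, the regulatory subunit of methionine adenosyltransferase, fell 1.69-fold. Of 7 transporters of serine or glycine 1 rose, Slc38a1 (1.32-fold), and 1 fell, Slc36a4 (1.40-fold). The number that rose was 2 without GL261 passage 17 and 3 with columns rescaled to a common sum.

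Of 13 purine synthesis genes 5 rose and 5 fell (median log2 difference 0.10), beside backgrounds of 32.2% and 32.1%. The number that rose was 3 without GL261 passage 33 or without mNS passage 85. Prps1, which makes the activated ribose, rose 2.96-fold and Adssl1, an adenylosuccinate synthase, rose 1.96-fold. Atic, which uses a folate one-carbon unit, fell 1.47-fold, and Paics, another enzyme of the purine ring, fell 1.79-fold. Of 12 pyrimidine and deoxynucleotide genes 6 fell and 1 rose (median -0.17), beside 32.1% of all tested genes called lower and 32.2% higher. Tk1, the thymidine kinase, fell 1.83-fold, and the ribonucleotide reductase genes Rrm2 and Rrm1 fell 1.76-fold and 1.59-fold. Ctps2, a CTP synthase, rose 2.64-fold.

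Of 16 proliferation markers, 8 fell in mNS, 2 rose and 6 were not called (median log2 difference -0.20). Over all tested genes 32.1% were called lower and 32.2% higher. The number of these markers called higher was 0 without GL261 passage 33 or mNS passage 85, and 1 without GL261 passage 34, mNS passage 72 or mNS passage 77. It was 1 with libraries centred on their median gene and 4 with columns rescaled to a common sum. Mki67, which marks cycling cells, fell from 1558 ± 34.6 to 860 ± 16.8 CPM (limma adjusted p = 1.75e-06). Top2a fell 1.53-fold, Cdk1 1.5-fold, Ccna2 1.48-fold and Pcna 1.25-fold. The 2 that rose were Mcm7 (1.19-fold) and Mcm2 (1.11-fold). Whether cycling has a part in the values of Tyms, Mthfd1 or Psat1 was not tested.

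**Figure D5:**
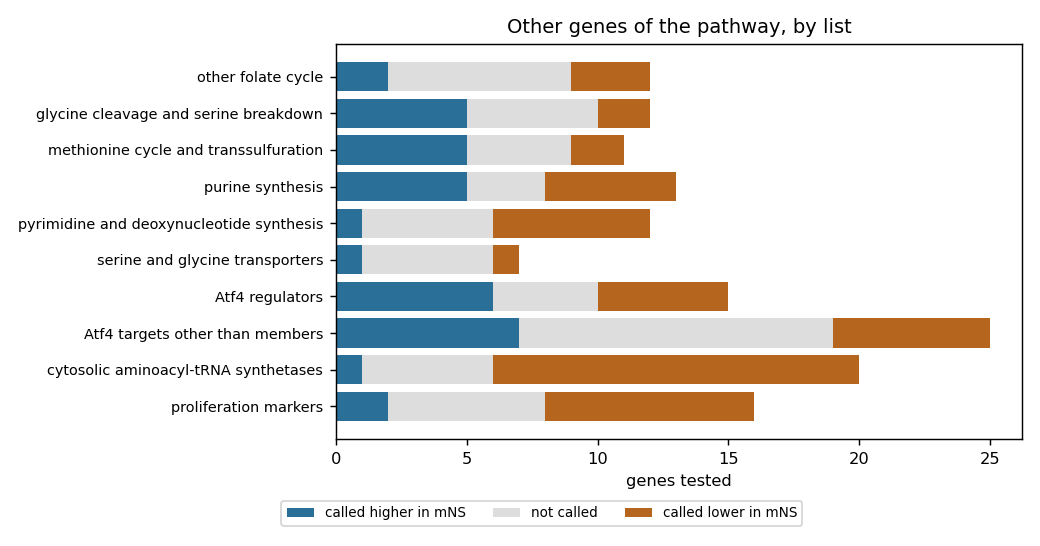
Number of genes tested in each list (horizontal axis), divided into those called higher in mNS, not called and called lower at a limma adjusted p under 0.05. Cytosolic aminoacyl-tRNA synthetases have the most genes called lower, 14 of 20, while purine synthesis splits evenly at 5 and 5. Over all tested genes 32.2% were called higher and 32.1% lower.

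The 3 genes whose values over the 6 libraries lay nearest to those of Psat1, the enzyme with the largest difference, were the dynein subunit gene Dync1i2, the protease gene Sppl2a and the alpha-catenin gene Ctnna1. The measure was the Euclidean distance of log2(CPM + 1) after each gene was centred on its mean, and the distances were 0.0441, 0.0463 and 0.0859. Dync1i2 had 295, 302 and 285 CPM in GL261 and 146, 159 and 161 CPM in mNS.

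Markers of the labelled cells were mixed. Of 8 neural stem markers 5 were listed, and their sum ranged from 1611 to 1864 CPM in GL261 and from 1504 to 1933 CPM in mNS. Prom1 and Egfr were among those not listed. Olig2 rose 51.1-fold, Fabp7 27.7-fold (42.7-fold without GL261 passage 17) and Msi1 1.98-fold, Nes fell 1.59-fold and Sox2 was not called (limma adjusted p = 0.778). Astrocyte markers, which could mark differentiated glioma cells, summed to between 237 and 316 CPM in GL261 and between 307 and 361 CPM in mNS. Gfap, the defining filament, was low in both (3.45 ± 1.81 and 0.101 ± 0.115 CPM). It was called lower in mNS (log2 difference -1.93, limma adjusted p = 0.000608), at no more than 3 reads per mNS library. Aldoc (6.73-fold) and Slc1a3 (3.07-fold) rose and S100b fell 4.31-fold. Of 10 macrophage markers 3 were listed (Cd68, Csf1r and Lyz2), at sums of 8.95 to 10.7 CPM in GL261 and 8.50 to 10.1 CPM in mNS, with Cd68 higher (2.74-fold) and Lyz2 lower (4.04-fold). None of 8 endothelial markers was listed. Of 7 fibroblast and pericyte markers Col1a1, Col3a1 and Pdgfrb were listed, at 259 to 424 CPM in GL261 and 93.8 to 229 CPM in mNS. Of these Col1a1 fell 20.5-fold and Pdgfrb from 2.41 ± 0.748 to 0.123 ± 0.0401 CPM, at no more than 2 reads per mNS library. Their part in the differences of the enzymes was not tested.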

How the data were processed

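The data were 1 deposited table of 6 mouse RNA-seq libraries, with 12151 genes. The libraries were stranded, depleted of ribosomal RNA and read from 1 end, per the labels' protocols. TopHat2, HTSeq 0.5.3p9, edgeR 3.4.2 and mouse build mm10 are named in the submitters' processing notes, and TMM scaling with an exact test in the series' text. The deposited values are a signal in CPM with TMM factors applied by the authors. Whole reads were recovered from their steps for 100% of values (tolerance 0.001), and the smallest total of a listed gene over the 6 libraries was 46 reads. The sources used here do not give the gene filter or the strand setting of the counting.

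The main test was limma 3.58.1 (R 4.3.3) with a trended prior on log2(CPM + 1), over the 12006 genes averaging 1 CPM or more. It was also run on simulated counts, in which far fewer genes changed than were called here, so that run does not show how it performs on these data. Alternatives on the recovered reads used edgeR 4.0.16 and DESeq2 1.42.0. Ratios between enzymes were compared with scipy 1.17.1. The members and lists were chosen with earlier results of these data known. Named genes were the 10 enzymes, up to 4 called genes with the largest difference in each list, a fixed few (Atf4, Myc, Mki67, Pcna, Sox2, Nes and Gfap) and the 3 genes nearest to Psat1. Cth, Nupr1, Cebpb, Amt, Sars, Slc19a1, Sfxn1, Sfxn2, Mcm2 and Mcm7 were named after their values were seen. Gene positions and exon lengths are from GENCODE M21 (GRCm38) and promoters from RefSeq. Some genes that the naming rule covers are not reported here.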

Additional observations from a re-analysis of the deposited data

How the results depend on the processing

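Psat1, Shmt2, Mthfd1 and Tyms kept their direction and their call in all alternatives run except the test against a 2-fold change. The largest adjusted p of those others was 6.21e-05 for Psat1, 0.00216 for Shmt2, 0.00532 for Mthfd1 and 0.0218 for Tyms. Against a 2-fold change, a stricter null, 1414 genes were called (793 higher, 621 lower) and 0 of the 10 enzymes, so that Psat1 (-0.91), Shmt2 (-0.66), Mthfd1 (-0.54), Tyms (-0.46), Mthfd1l (-0.28) and Shmt1 (0.27) lost their calls. At an adjusted p under 0.01, Shmt1 (0.27) was lost and 0 enzymes were called higher. Under quantile normalisation Mthfd1l was -0.14 and lost its call, and Asns was 0.13. With array weights 2 enzymes were called higher, Mthfd2 at 0.16 joining Shmt1, and Asns was 0.15. With columns rescaled to a common sum Asns was 0.088 and the median of the other folate cycle genes 0.030. Psph was -0.0032 under both edgeR tests and -0.019 with libraries centred on their median gene. Causes were not tested.

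Leaving out each library in turn called 6603 to 7781 genes (3320 to 3908 higher, 3283 to 3873 lower) and 5 to 7 of the enzymes, 0 to 2 higher and 5 lower. Over these fits the log2 difference ran from -0.11 to 0.20 for Asns, -0.075 to 0.11 for Psph, -0.022 to 0.15 for Mthfd2, -0.22 to -0.029 for Phgdh and 0.22 to 0.33 for Shmt1. The mitochondrial to cytosolic ratio ran from -0.12 to 0.062. Among list medians, that of the transporters ran from -0.073 to 0.12, below 0 at -0.073, -0.0056 and -0.011 without GL261 passage 33, GL261 passage 34 and mNS passage 72. That of the Atf4 regulators ran from -0.023 to 0.086, below 0 at -0.023 and -0.0076 without mNS passage 72 and passage 85. No paired analysis was possible because the labels give passages and the groups share no replicate numbers. Depth was not limiting for the 10 enzymes, since each had at least 1176 reads in every library, but it limits genes near 0 such as Gfap and Pdgfrb in mNS.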
